A study of Rattus norvegicus with 15 samples.

Results

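The S phase and mitosis genes are a set of 42 rat genes whose products copy the chromosomes and divide the cell, and their levels were read in 15 retina libraries. They were named by gene symbol, and 40 of the 42 were found in the symbol column. E2f1, a transcription factor that switches on S phase genes, and Ccnb2, a B-type cyclin, were not found by symbol and were not analysed here. Of the 40, 39 had a mean level of at least the log2 of 10 over the 15 libraries, and these are the members tested, out of 15424 genes that passed the same limit among 20375 listed. Melk, a mitotic kinase, had a mean of 3.22 and stayed outside. Its highest value was 4.12 in MSC replicate 1 and its lowest was 2.98 in NT replicate 2. Just inside the limit were Bub1b and Ncapg, with means of 4.13 and 4.22.

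The retinas came from wild type Sprague-Dawley rats at 12 postnatal weeks and were taken on day 31 after transplantation, with 3 libraries in each of 5 groups. NT rats were healthy. Sham, MSC, MSCEPO and DPSC rats received systemic sodium iodate at 40 mg/kg, which damages the retinal pigment epithelium and the photoreceptors. Sham eyes received vehicle. MSC eyes received human mesenchymal stem cells by intravitreal injection before the sodium iodate, MSCEPO eyes such cells carrying an erythropoietin transgene, and DPSC eyes a cell labelled only by that abbreviation. Per the labels, rats with a xenograft also received dexamethasone at 2 mg/kg before surgery and oral cyclosporin at 10 mg/kg per day afterwards, so cell injection and these drugs cannot be told apart. The sources used here do not agree on the density of the injected cells, and the dose is left out. Levels are given in the authors' regularized log (rlog) unit, a log2 scale. A difference of 1 is therefore a 2-fold difference, shrunken toward the mean of the gene. The depth of each library is not known from these values, and the library medians over the tested genes ranged from 8.63 to 8.82.

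As background, a dividing cell first licenses its replication origins by loading the MCM2-7 helicase with the help of Cdc6 and Cdt1, then copies its DNA with the sliding clamp Pcna while ribonucleotide reductase and thymidylate synthase supply deoxynucleotides. Mitosis is driven by Cdk1 with A- and B-type cyclins and by the Polo and Aurora kinases. Transcription of S phase genes depends on E2F factors, and that of mitotic genes on the MuvB complex with B-Myb and Foxm1. This complex acts through the CHR element in the promoters of mitotic genes. CCAAT boxes were searched as a further promoter motif. Neurons and photoreceptors of the adult rat retina do not divide, whereas activated lymphocytes, microglia, endothelial cells and some glia can. Ptprc, which encodes the pan-leukocyte surface phosphatase CD45, was used as the marker of leukocytes in each library.

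The promoters of 6 members with called changes or a called relation to leukocytes are shown first, since S phase and mitosis genes differed in some of the promoter motifs searched. The sequences are the 250 bases before the gene start in RefSeq, build GRCr8, written 5′ to 3′ on the strand of the gene, and are not in the build of the expression values (Rnor_6.0). Capitals mark a CHR element, a CCAAT box or an E2F-type site on either strand, so that a motif on the other strand is in capitals as its reverse complement. The CHR element was searched as TTTGAA and also, in its other form, as TTCGAA. The CCAAT box was searched by the letters of its name. The E2F-type sites searched were TTTGGCGC and its variant TTTGGCGG, as well as the site TTTCGCGC and, finally, the site TTTCCCGC. In Mki67 a CHR element and a CCAAT box overlap by 1 base, in Mcm5 a pair of E2F-type matches overlap, and in Mcm3 the capitals at the right end are the first bases of a match that runs past the gene start.
Mki67, chr1:199952594-199952843, minus strand: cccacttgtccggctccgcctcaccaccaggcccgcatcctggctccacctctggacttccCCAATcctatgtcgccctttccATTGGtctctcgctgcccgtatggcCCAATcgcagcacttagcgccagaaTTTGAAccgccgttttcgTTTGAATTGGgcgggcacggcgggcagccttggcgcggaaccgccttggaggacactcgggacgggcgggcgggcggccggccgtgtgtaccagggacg
Top2a, chr10:84473094-84473343, minus strand: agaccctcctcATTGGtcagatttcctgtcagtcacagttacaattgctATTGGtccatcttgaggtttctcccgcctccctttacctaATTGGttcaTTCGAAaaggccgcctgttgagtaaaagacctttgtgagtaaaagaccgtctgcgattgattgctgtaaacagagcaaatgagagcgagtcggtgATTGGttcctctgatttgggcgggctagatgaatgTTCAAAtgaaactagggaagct
Cdk1, chr20:19265043-19265292, plus strand: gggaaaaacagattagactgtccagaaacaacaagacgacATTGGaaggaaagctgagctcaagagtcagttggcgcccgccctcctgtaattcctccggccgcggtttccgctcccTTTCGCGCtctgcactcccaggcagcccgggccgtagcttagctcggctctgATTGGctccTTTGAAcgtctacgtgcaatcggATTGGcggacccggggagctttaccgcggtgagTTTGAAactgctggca
Prc1, chr1:143659231-143659480, plus strand: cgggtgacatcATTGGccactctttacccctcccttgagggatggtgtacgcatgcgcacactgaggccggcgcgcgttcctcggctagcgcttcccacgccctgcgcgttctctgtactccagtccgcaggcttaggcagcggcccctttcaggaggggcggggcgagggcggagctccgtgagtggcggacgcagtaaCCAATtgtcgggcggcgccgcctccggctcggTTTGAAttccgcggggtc
Mcm3, chr9:30733747-30733996, minus strand: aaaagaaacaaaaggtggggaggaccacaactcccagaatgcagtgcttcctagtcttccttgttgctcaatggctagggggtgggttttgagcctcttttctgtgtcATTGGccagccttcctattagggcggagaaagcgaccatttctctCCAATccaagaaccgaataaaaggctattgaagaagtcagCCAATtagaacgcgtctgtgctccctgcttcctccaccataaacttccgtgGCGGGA
Mcm5, chr19:13488563-13488812, plus strand: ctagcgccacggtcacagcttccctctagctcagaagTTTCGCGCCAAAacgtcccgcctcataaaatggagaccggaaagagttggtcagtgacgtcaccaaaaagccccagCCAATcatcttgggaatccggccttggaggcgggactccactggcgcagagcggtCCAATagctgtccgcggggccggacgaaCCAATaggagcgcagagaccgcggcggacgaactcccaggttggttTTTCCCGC

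The window searched was 300 bases, 250 before the gene start and 50 after. RefSeq entries of this length were found for 33 of the 42 members, and none was used for Aurkb, Ccna2, Cdc6, E2f1, Foxm1, Mcm4, Rrm2, Tpx2 and Ube2c. A CHR element was present in 19 of the 33 promoters (57.6%) and in 19.7% of all 33469 promoters of the same length. A CCAAT box was present in 24 (72.7%, against 37.5%), and both were present in 16 (48.5%, against 7.95%). An E2F-type site was present in 8 (24.2%, against 2.18%). The E2F-type site and the CHR element differed in share by function. The CCAAT box was common in both classes, in 6 of the 9 S phase promoters and 18 of the 24 others. Of the 9 S phase promoters, 7 held an E2F-type site and 3 a CHR element, whereas of the 24 promoters of mitosis and its control, 1 held an E2F-type site and 16 a CHR element. That 1 promoter was Cdk1, which held all 3 motifs. Aurka, Bub1, Kif2c and Melk held none of them in this window. A match is a run of letters and no measure of binding.

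**Figure D1:**
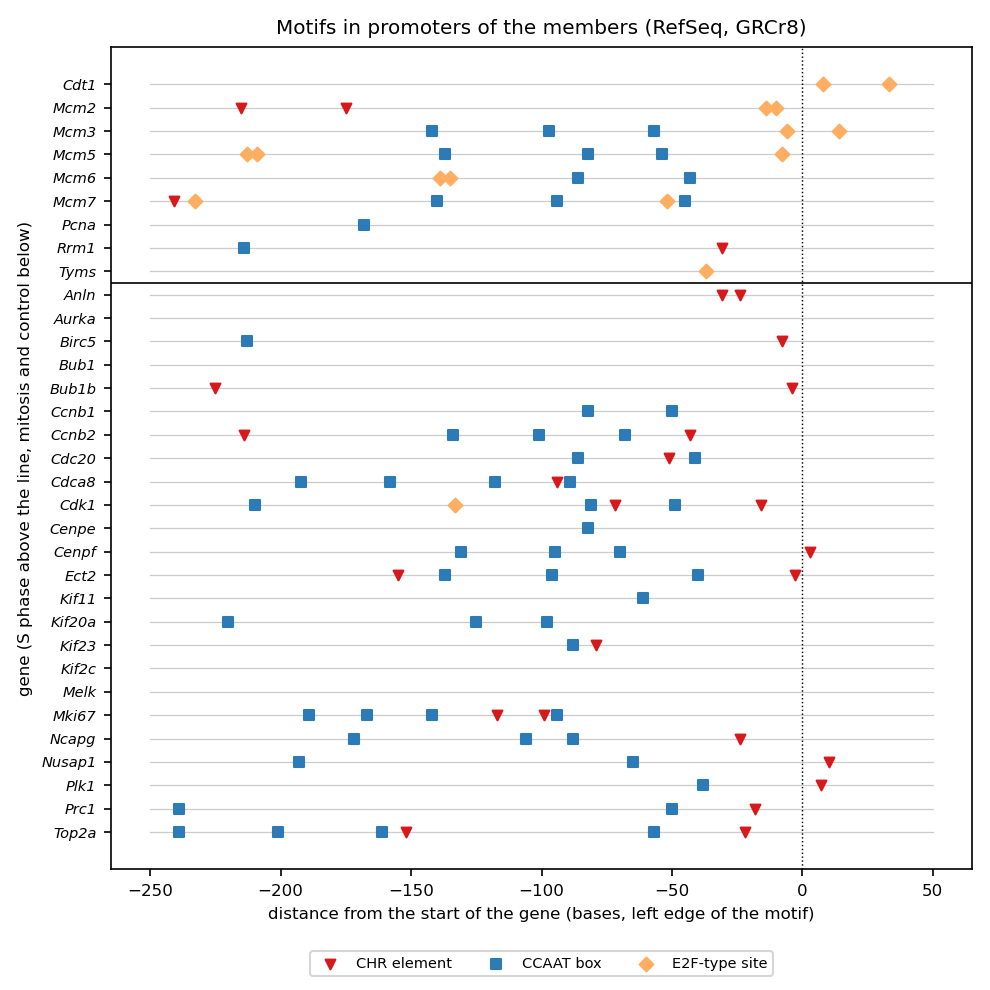
Motif positions in the promoters of 33 members, in bases from the gene start (x axis, left edge of each motif), with S phase genes above the line and genes of mitosis and its control below. Triangles are CHR elements, squares CCAAT boxes and diamonds E2F-type sites; diamonds lie in 7 of the 9 S phase promoters and in 1 of the 24 others.

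Before the members are described, the leukocyte marker is given, because the members are set against it. Ptprc was 6.88, 6.80 and 6.37 in NT, 7.64, 7.77 and 7.47 in Sham, 12.15, 10.49 and 9.59 in MSC, 10.31, 9.44 and 7.94 in MSCEPO, and 7.97, 9.80 and 7.42 in DPSC. The MSC and MSCEPO libraries were all above Sham, and DPSC overlapped Sham. The 3 cell-injected groups overlapped each other. The spread within each of these 3 was more than 1 rlog unit (SD 1.30 in MSC, 1.20 in MSCEPO and 1.24 in DPSC, n = 3) against 0.27 in NT and 0.15 in Sham. The mean of 14 leukocyte markers ran from 5.54 to 5.78 in NT, 6.12 to 6.55 in Sham, 7.29 to 9.83 in MSC, 6.75 to 7.82 in MSCEPO and 6.24 to 7.55 in DPSC, with all 14 in the table. As the retinas are bulk tissue, a change in the number of cells of a type cannot be told apart from a change in RNA per cell. Retinal identity was clear from 9 photoreceptor markers, whose mean was 14.98 to 15.05 in NT, 14.21 to 14.39 in Sham, 13.58 to 13.59 in MSC, 13.24 to 13.57 in MSCEPO and 13.43 to 14.16 in DPSC. Lens markers stood apart in DPSC replicates 1 and 3 and MSCEPO replicate 3, with means of 14.37, 13.56 and 12.56 against 7.69 to 11.31 in the other libraries.

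The widest range of any member was that of Mki67, which encodes the nuclear protein detected by the Ki-67 proliferation antibody and which coats mitotic chromosomes. Its level was 5.61, 5.58 and 5.31 in NT, 5.47, 5.67 and 6.02 in Sham, 9.94, 8.22 and 7.05 in MSC, 7.90, 7.35 and 5.85 in MSCEPO, and 6.66, 7.37 and 5.19 in DPSC. All 3 MSC libraries lay above every Sham and NT library, and MSCEPO replicate 3 and DPSC replicate 3 lay within or below the Sham range. Top2a, the topoisomerase that untangles replicated chromosomes, was 4.65, 4.74 and 4.56 in NT, 5.09, 5.09 and 5.27 in Sham, 9.09, 7.44 and 6.20 in MSC, 7.35, 6.88 and 5.31 in MSCEPO, and 5.95, 6.99 and 5.08 in DPSC. It had the same order of libraries within MSC and within MSCEPO as Mki67 and Ptprc. The ranges over the 15 libraries were 4.75 for Mki67 and 4.53 for Top2a, and 9 of the 39 members had a range over 2. For 33 of the 39 the highest library was MSC replicate 1, which also had the highest Ptprc. The shares of all genes tested with such a range or with this highest library were not computed. These counts therefore describe the members and do not set them apart from other genes.

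**Figure D2:**
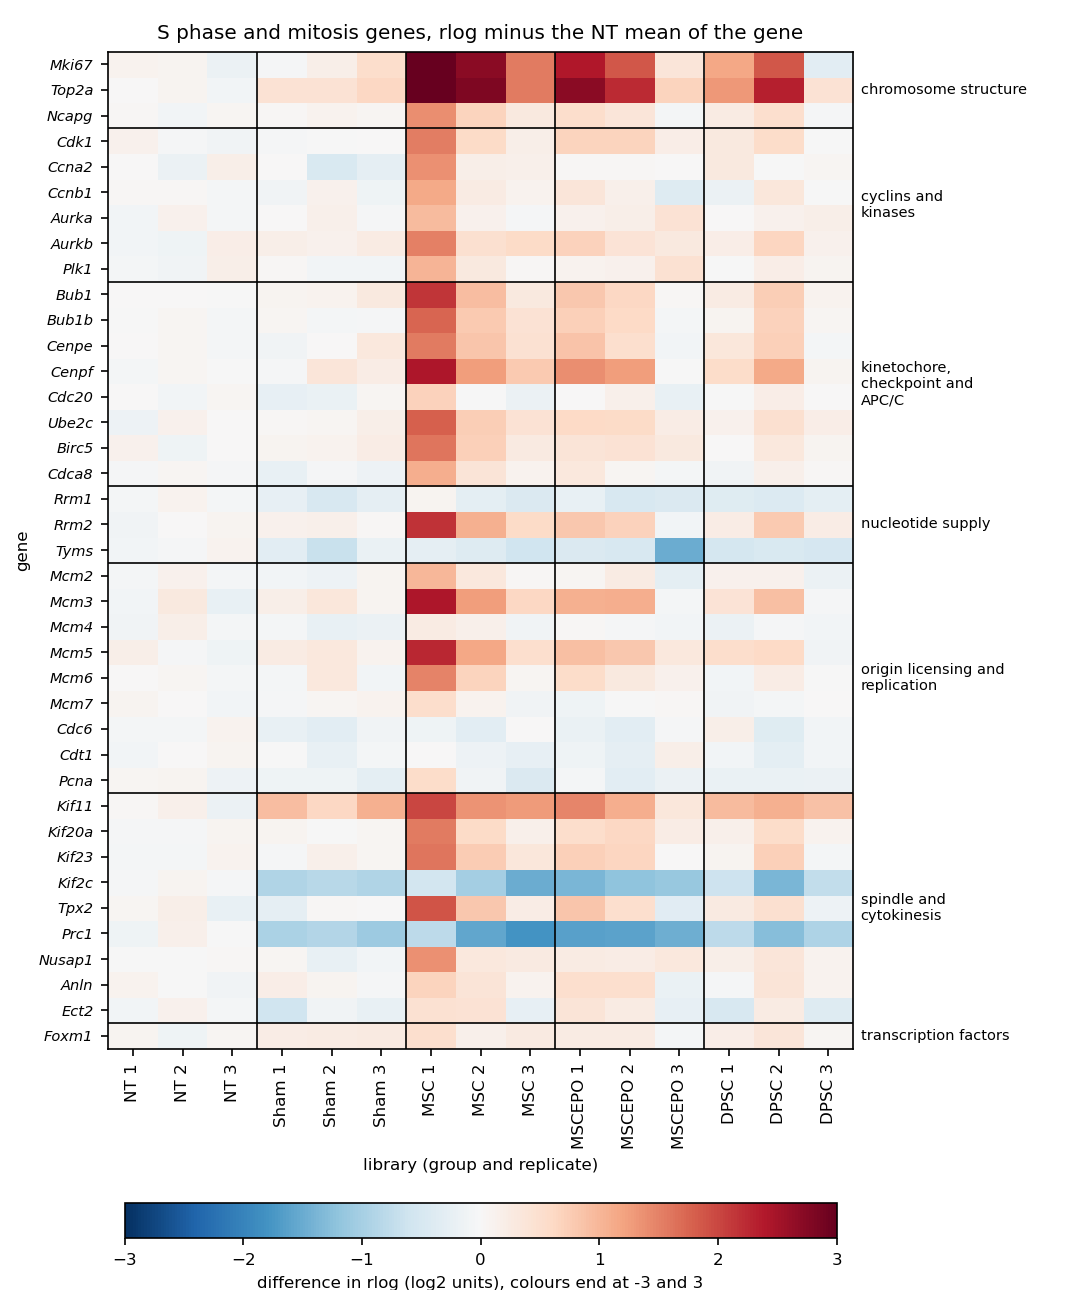
Difference between each library's rlog value and the NT mean of the gene (colour, log2 units) for the 39 tested members (rows, by role) in the 15 libraries (columns). The MSC replicate 1 column is the highest for 33 members (share of all genes not computed). Mki67 and Top2a span the widest range, and Kif2c and Prc1 are below NT in every library given sodium iodate.

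Among the cyclins and kinases, Cdk1, the kinase that starts mitosis, was 4.79, 4.63 and 4.55 in NT, 4.62, 4.65 and 4.68 in Sham, 6.19, 5.24 and 4.84 in MSC, 5.33, 5.33 and 4.86 in MSCEPO, and 4.94, 5.21 and 4.64 in DPSC. Every MSC and MSCEPO library was above every Sham library. Its partner Ccnb1 (cyclin B1) was 5.85, 5.87 and 5.76 in NT, 5.73, 5.95 and 5.70 in Sham, 6.96, 6.07 and 5.94 in MSC, 6.18, 5.98 and 5.44 in MSCEPO, and 5.66, 6.17 and 5.82 in DPSC. For this gene MSC replicate 3 overlapped Sham, and only MSC replicate 1 lay clearly above the others. Ccna2 (cyclin A2), which acts in S phase and early mitosis, was 6.29, 6.10 and 6.45 in NT, 6.30, 5.82 and 6.001 in Sham, 7.64, 6.46 and 6.44 in MSC, 6.31, 6.32 and 6.29 in MSCEPO, and 6.56, 6.26 and 6.34 in DPSC. It was nearly flat across the MSCEPO libraries, with an SD of 0.01. Foxm1, a transcription factor of mitotic genes, was 6.47, 6.26 and 6.46 in NT, 6.63, 6.64 and 6.68 in Sham, 6.90, 6.56 and 6.66 in MSC, 6.64, 6.65 and 6.33 in MSCEPO, and 6.598, 6.75 and 6.46 in DPSC. Its range was 0.63, and Sham, MSC, MSCEPO and DPSC overlapped.

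Among the genes of origin licensing and replication, Mcm3, a subunit of the replicative helicase, was 5.79, 6.17 and 5.64 in NT, 6.04, 6.21 and 5.96 in Sham, 8.30, 7.11 and 6.48 in MSC, 6.92, 6.96 and 5.80 in MSCEPO, and 6.28, 6.78 and 5.82 in DPSC. Mcm5, another subunit, was 5.63, 5.41 and 5.32 in NT, 5.71, 5.76 and 5.57 in Sham, 7.72, 6.61 and 5.97 in MSC, 6.35, 6.27 and 5.77 in MSCEPO, and 5.98, 6.06 and 5.36 in DPSC. In both, the 3 MSC libraries lay above all Sham and NT libraries. Mcm2, in the same helicase, was 8.23, 8.41 and 8.22 in NT, 8.21, 8.14 and 8.36 in Sham, 9.28, 8.59 and 8.32 in MSC, 8.35, 8.54 and 7.99 in MSCEPO, and 8.41, 8.41 and 8.12 in DPSC. Here the groups overlapped. Pcna, the clamp of the DNA polymerases, was at 10.10, 10.14 and 9.90 in NT, 9.92, 9.92 and 9.77 in Sham, 10.59, 9.95 and 9.62 in MSC, 10.00, 9.74 and 9.87 in MSCEPO, and 9.84, 9.84 and 9.87 in DPSC. Its MSC libraries overlapped those of every other group, with replicate 1 the highest and replicate 3 the lowest of the 15, and all 3 DPSC libraries lay below all 3 NT libraries. Of the genes of nucleotide supply, Rrm2, the small subunit of ribonucleotide reductase whose level follows S phase, was 3.95, 4.07 and 4.14 in NT, 4.18, 4.20 and 4.09 in Sham, 6.22, 5.11 and 4.62 in MSC, 4.87, 4.74 and 3.97 in MSCEPO, and 4.28, 4.83 and 4.28 in DPSC. MSC lay above Sham and NT without overlap, and MSCEPO replicate 3 was within the NT range.

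Among the genes of the kinetochore, the checkpoint and the anaphase-promoting complex, Cenpf, a kinetochore protein, was 5.10, 5.22 and 5.14 in NT, 5.13, 5.52 and 5.38 in Sham, 7.57, 6.41 and 5.94 in MSC, 6.56, 6.42 and 5.14 in MSCEPO, and 5.70, 6.28 and 5.24 in DPSC. MSCEPO replicates 1 and 2 were within the MSC range, and replicate 3 was within NT and Sham. Birc5 (survivin), a subunit of the chromosomal passenger complex, was 4.22, 3.98 and 4.10 in NT, 4.18, 4.20 and 4.31 in Sham, 5.71, 4.81 and 4.37 in MSC, 4.49, 4.54 and 4.40 in MSCEPO, and 4.12, 4.41 and 4.18 in DPSC. All MSC and MSCEPO libraries exceeded all Sham libraries. Cdc20, an activator of the anaphase-promoting complex, was 6.03, 5.92 and 6.08 in NT, 5.77, 5.82 and 6.06 in Sham, 6.69, 5.998 and 5.84 in MSC, 6.02, 6.17 and 5.79 in MSCEPO, and 5.99, 6.21 and 6.01 in DPSC, with overlap between all groups and 6.69 in MSC replicate 1 as its only value above 6.21. In the spindle group Kif11, the motor that separates the spindle poles, was 7.08, 7.203 and 6.87 in NT, 7.97, 7.66 and 8.13 in Sham, 9.06, 8.41 and 8.33 in MSC, 8.52, 8.14 and 7.38 in MSCEPO, and 8.01, 8.12 and 7.94 in DPSC. All 3 Sham libraries were above NT, and so was every other library given sodium iodate.

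**Figure D3:**
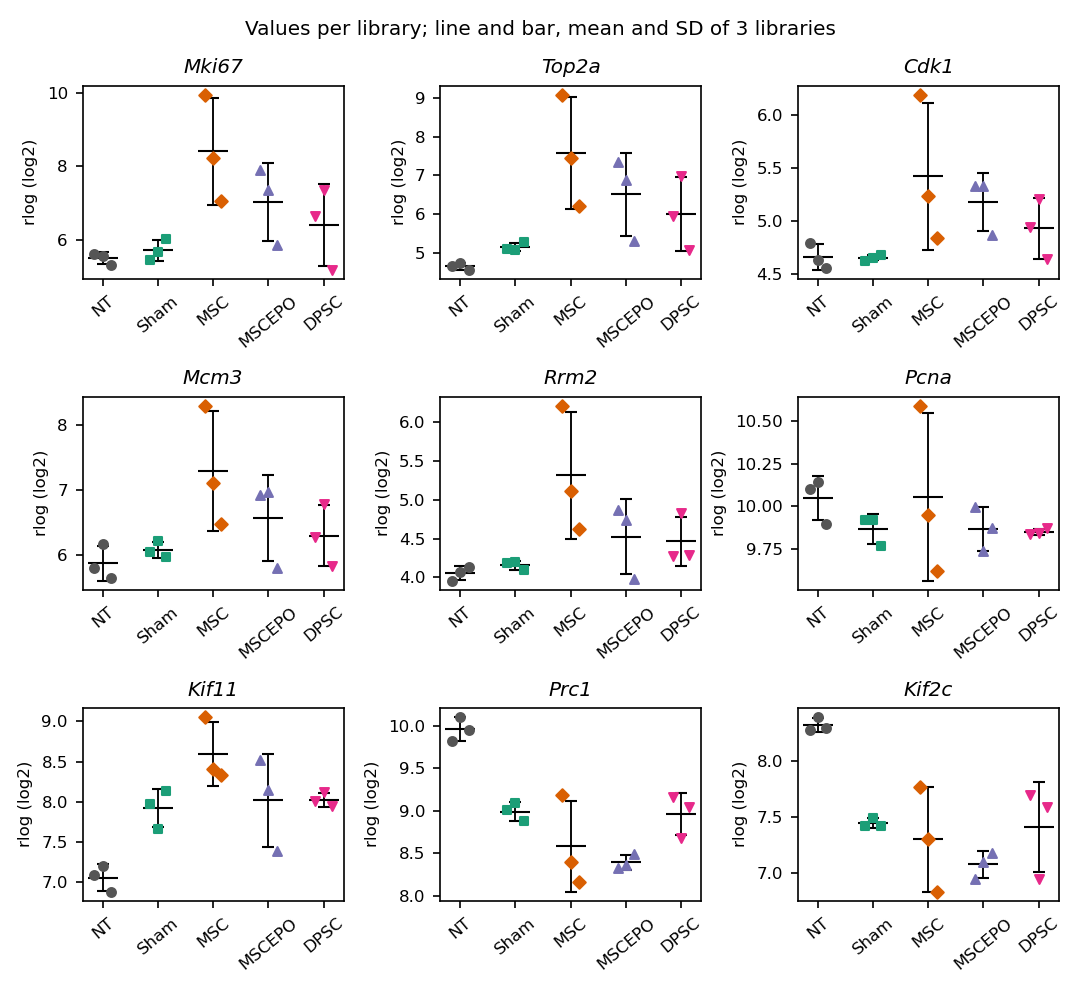
Values per library (points, rlog on a log2 scale) of 9 members in the 5 groups, with the mean and SD of 3 libraries (line and bar). Mki67, Top2a, Cdk1, Mcm3 and Rrm2 were highest in MSC replicate 1 and varied within the cell-injected groups, Kif11 was above NT in every other group, and Prc1 and Kif2c were below NT in every other group.

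The comparison of Sham with NT asks how the members differed after sodium iodate without cells. None of the 39 was a differentially expressed gene (DEG, more than 2-fold at an adjusted p under 0.05 by limma with Benjamini-Hochberg adjustment over 15424 genes), against 0.292% of all genes tested, and 1 was higher and 3 lower at an unadjusted p under 0.05, where 6.29% of all genes were higher and 6.06% lower. These 4 were Kif11, at 0.87 ± 0.26 (log2 fold change with its SE, adjusted p = 0.158), Rrm1, at -0.33 ± 0.12 (adjusted p = 0.290), Kif2c, at -0.87 ± 0.22 (adjusted p = 0.0930), and Prc1, at -0.97 ± 0.21 (adjusted p = 0.0553). Bub1, Foxm1, Kif11 and Top2a were higher in every Sham than in every NT library, 4 of 39 where 16.6% of all genes tested were. Cdc6, Rrm1, Tyms, Kif2c, Prc1 and Ect2 were lower in every Sham than in every NT library, 6 of 39 where 15.3% of all genes were. The median log2 fold change of the members was 0.04, against 0.00 over all genes tested. Of the other genes of the pathway, 0 of 39 in DNA replication and 0 of 47 in mitosis had an adjusted p under 0.05, with 4 and 1 at an unadjusted p under 0.05.

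The comparisons of the cell-injected groups with Sham ask how the members differed after cell injection together with the drugs given with it. With MSC, the median log2 fold change of the members was 0.68, against -0.00 over all genes tested, and it was 0.35 without MSC replicate 1. The mean level of the 39 members was 1.28, 0.50 and 0.15 above that of NT in MSC replicates 1, 2 and 3. None was a DEG by limma, in a comparison that called 0% of all genes. The paper called many genes at these thresholds with DESeq2, here and with MSCEPO against Sham, so the share called depends on the method. At an unadjusted limma p under 0.05, 25 members were higher and 0 lower, where 9.49% and 3.82% of all genes were. The values of 21 of the 39 were higher in every MSC than in every Sham library, where 13.1% of all genes were. The smallest adjusted p was that of Mki67 (log2 fold change 2.68 ± 0.70 SE, adjusted p = 0.135; 8.40 ± 1.46 in MSC and 5.72 ± 0.28 in Sham, SD, n = 3), and Top2a followed (2.43 ± 0.67, adjusted p = 0.145). By role, the median log2 fold change was 2.43 for chromosome structure, 0.89 for the kinetochore, checkpoint and anaphase-promoting complex, 0.68 for spindle and cytokinesis, 0.61 for cyclins and kinases, 0.25 for licensing and replication and 0.10 for nucleotide supply. Without MSC replicate 3, the MSC library with the lowest Ptprc, 14 members were DEGs against Sham, all higher, in a fit that called 3.4% of all genes. Without MSC replicate 1, 0 members were, in a fit that called 0% of all genes, as in the fit of all libraries.

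With MSCEPO, 0 members were DEGs against Sham by limma, where 0.0195% of all genes were, with 0 higher and 1 lower at an unadjusted p under 0.05, where 3.19% and 5.12% of all genes were. That 1 was Prc1 (log2 fold change -0.60 ± 0.21 SE, adjusted p = 0.514). In 9 of the 39, including Cdk1, Top2a and Birc5, every MSCEPO library was above every Sham library, where 7.44% of all genes were, and the median log2 fold change was 0.27. With DPSC, 0 members were DEGs by limma, where 0.013% of all genes were, and 0 had an unadjusted p under 0.05, where 0.985% of all genes were higher and 1.39% lower. Kif20a, Nusap1 and Rrm2 were higher in every DPSC than in every Sham library, 3 of 39 where 4.75% of all genes were, and the median log2 fold change was 0.14. Of the other genes of the pathway, 0 had an adjusted p under 0.05 against Sham in any of the 3 groups by limma. At an unadjusted p under 0.05, 11 of 39 replication genes and 29 of 47 mitosis genes were higher with MSC and 0 lower (against 9.49% and 3.82% of all genes, as above), 2 and 1 were higher and 1 and 1 lower with MSCEPO, and 0 with DPSC. Kif22, a chromosome-binding kinesin, had a log2 fold change of 1.02 ± 0.23 with MSC (adjusted p = 0.134).

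Against the healthy retina, both rises and falls were called. In MSC, 7 members rose and 2 fell as DEGs by limma (9 of 39, where 6.7% of all genes tested were DEGs), and at an adjusted p under 0.05 alone 14 were higher and 2 lower, where 17.4% of all genes passed. The 7 were Top2a (log2 fold change 2.93 ± 0.67 SE, adjusted p = 0.0109), Mki67 (2.90 ± 0.70, adjusted p = 0.0139), Kif11 (1.55 ± 0.26, adjusted p = 0.00265), Cenpf (1.49 ± 0.42, adjusted p = 0.0290), Mcm3 (1.43 ± 0.42, adjusted p = 0.0338), Mcm5 (1.31 ± 0.34, adjusted p = 0.0208) and Rrm2 (1.26 ± 0.33, adjusted p = 0.0213). Aurkb, Bub1b, Cenpe, Ube2c, Birc5, Kif23 and Ncapg passed the adjusted p at less than 2-fold, with log2 fold changes from 0.78 to 0.98. They include the Aurora B kinase, a spindle checkpoint kinase, a kinetochore motor, an anaphase ubiquitin-conjugating enzyme and a condensin subunit. Leaving out a library moved the number of DEGs: it was 4 without NT replicate 3 or MSC replicate 1 (4.34% and 4.38% of all genes), 5 without NT replicate 2 (4.93%), and 20 without MSC replicate 3 (8.1%). In the same comparison 9 of 39 other replication genes were higher and 1 lower at an adjusted p under 0.05, and 11 of 47 other mitosis genes were higher and 1 lower. Kif22 (1.17 ± 0.23, adjusted p = 0.00587) and E2f2, a transcription factor of S phase genes (1.195 ± 0.30, adjusted p = 0.0160) were among those higher, and Hmmr, a spindle and hyaluronan-binding protein, was the mitosis gene that was lower (-0.70 ± 0.13, adjusted p = 0.00390). The replication gene that was lower was Brca1, of homologous repair (-0.42 ± 0.13, adjusted p = 0.0495).

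The 2 members that fell in MSC were Prc1, which bundles the microtubules of the central spindle, and Kif2c, a kinesin that depolymerizes microtubules at the kinetochore. Prc1 was 9.82, 10.10 and 9.95 in NT, 9.01, 9.09 and 8.88 in Sham, 9.18, 8.40 and 8.16 in MSC, 8.33, 8.36 and 8.49 in MSCEPO, and 9.16, 8.68 and 9.04 in DPSC. Kif2c was 8.28, 8.39 and 8.29 in NT, 7.42, 7.50 and 7.42 in Sham, 7.77, 7.31 and 6.83 in MSC, 6.95, 7.10 and 7.18 in MSCEPO, and 7.699, 6.95 and 7.59 in DPSC. Every library given sodium iodate was below every NT library for both, and in MSCEPO both were also below every Sham library. Against NT, Prc1 fell by 1.38 on the log2 scale with MSC (SE 0.21, adjusted p = 0.00170 by limma) and by 1.56 with MSCEPO (SE 0.21, adjusted p = 0.000749). Kif2c fell by 1.02 with MSC (SE 0.22, adjusted p = 0.00842) and by 1.24 with MSCEPO (SE 0.22, adjusted p = 0.00372). The mean of the 9 photoreceptor markers was lower in the same groups, at 14.98 to 15.05 in NT and 13.24 to 13.59 over the MSC and MSCEPO libraries, and its part in these falls was not tested.

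In MSCEPO, 0 members rose and these 2 fell as DEGs (where 3.57% of all genes were DEGs), and at an adjusted p under 0.05 alone 1 was higher and 3 lower, where 11.6% of all genes passed. The other 2 were Kif11 (log2 fold change 0.96 ± 0.26 SE, adjusted p = 0.0313) and Tyms, the thymidylate synthase (-0.81 ± 0.23, adjusted p = 0.0398). Tyms was 8.85, 8.92 and 9.06 in NT, 8.62, 8.28 and 8.76 in Sham, 8.69, 8.55 and 8.34 in MSC, 8.51, 8.47 and 7.45 in MSCEPO, and 8.42, 8.48 and 8.45 in DPSC. Its MSCEPO replicate 3 was the lowest of the 15 libraries, more than 1 unit below the next MSCEPO library, and all NT libraries were above all others. Without MSCEPO replicate 3, 5 members were DEGs, in a fit that called 5.41% of all genes. In DPSC, 0 members were DEGs by limma, where 0.784% of all genes were, with 1 higher (Kif11) and 3 lower (Rrm1, Kif2c and Prc1) at an unadjusted p under 0.05, where 8.91% and 7.9% of all genes were. At an adjusted p under 0.05 alone 2 were lower, where 2.85% of all genes passed, and these were again Prc1 (-0.996 ± 0.21, adjusted p = 0.0269) and Kif2c (-0.91 ± 0.22, adjusted p = 0.0457). Without DPSC replicate 1 or DPSC replicate 3, 1 member was a DEG, where 0.752% and 1.13% of all genes were. Hmmr had an adjusted p under 0.05 in both groups, at -1.06 ± 0.13 in MSCEPO (adjusted p = 0.000329) and -0.55 ± 0.13 in DPSC (adjusted p = 0.0373). Brca1 and Clspn, an adaptor of the replication checkpoint, were lower in MSCEPO, at -0.54 ± 0.13 (adjusted p = 0.0204) and -0.73 ± 0.17 (adjusted p = 0.0139). The 3 comparisons with NT share the NT libraries.

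The cell-injected groups were also compared with each other, and 0 members were DEGs by limma in any of the 3 comparisons, each of which called 0% of all genes. At an unadjusted p under 0.05, 3 members (Rrm2, Kif11 and Ncapg) were higher in MSC than in MSCEPO and 0 lower, where 2.83% and 0.966% of all genes were. In DPSC 14 members were lower than in MSC and 0 higher, where 5.78% and 1.24% of all genes were. Against MSCEPO, 1 member (Prc1) was higher in DPSC and 0 lower, where 1.58% and 0.901% of all genes were. Between MSC and MSCEPO the log2 difference was 1.37 ± 0.70 (SE) for Mki67 and 1.06 ± 0.67 for Top2a (adjusted p = 0.754 for both), where the values of the groups overlapped. Groups without overlap were found for 1 of 39 members in each of these directions: Ccna2, higher in MSC than in MSCEPO (2.18% of all genes), Kif11, lower in DPSC than in MSC (3.68%), and Prc1, higher in DPSC than in MSCEPO (2.39%).

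**Figure D4:**
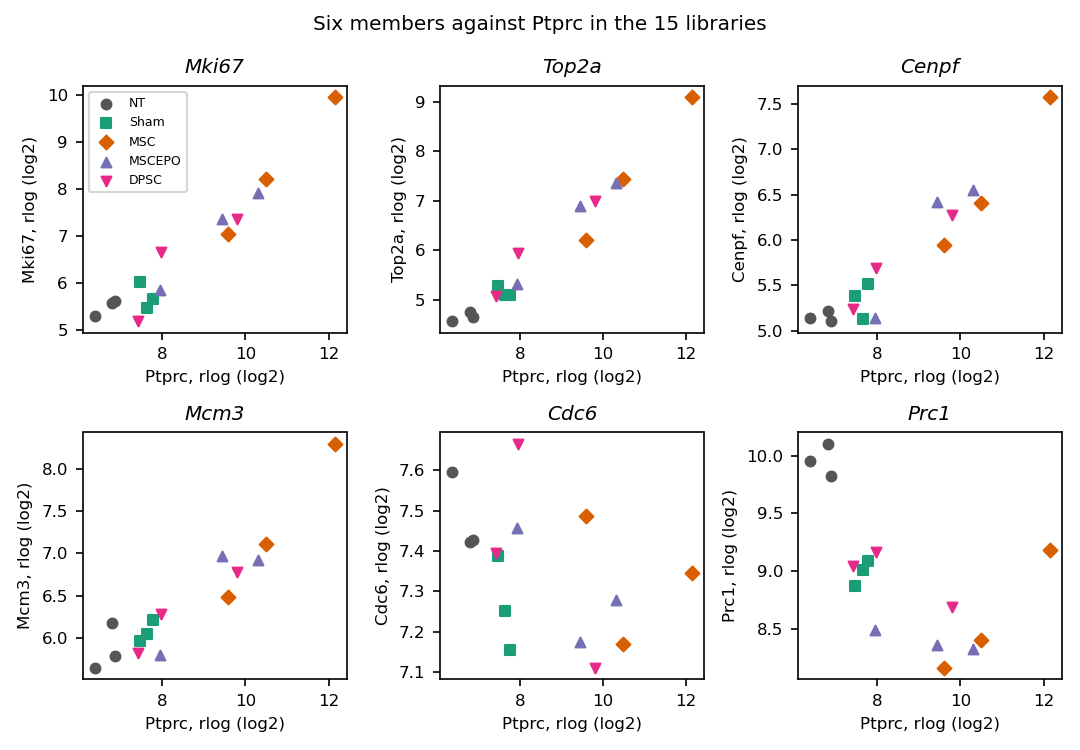
Levels of 6 members (y axis, rlog on a log2 scale) against Ptprc (x axis, rlog) in the 15 libraries, with a symbol for each group. Mki67, Top2a, Cenpf and Mcm3 were high in the libraries with high Ptprc within each cell-injected group, Cdc6 had no positive slope, and Prc1 was highest in the NT libraries.

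The libraries of a cell-injected group differed widely in Ptprc, so the members were related to Ptprc within groups. Within MSCEPO and DPSC, Ptprc was lowest in MSCEPO replicate 3 and DPSC replicates 1 and 3. These had lens marker means of 12.56, 14.37 and 13.56, against 8.15 to 9.15 in the others of those groups. In MSC the highest lens mean, 11.31, was in replicate 1, which had the highest Ptprc. The part of lens tissue in the slopes was not tested. In a limma fit with group means and Ptprc as terms over the 15 libraries, 25 of the 39 members had a positive slope and 0 a negative one at an adjusted p under 0.05. Over all genes tested, 12.7% had a positive and 8.38% a negative slope. The median slope of the members was 0.248 rlog units per unit of Ptprc, against 0.0140 over all genes. The steepest were Mki67 (0.918 ± 0.103 SE, adjusted p = 0.000123), Top2a (0.901 ± 0.0772, adjusted p = 2.34e-05), Cenpf (0.551 ± 0.0624, adjusted p = 0.000129), Mcm3 (0.538 ± 0.0695, adjusted p = 0.000336), Tpx2, a spindle assembly factor (0.464 ± 0.0677, adjusted p = 0.000702), and Bub1, a checkpoint kinase (0.445 ± 0.0697, adjusted p = 0.00112). The smallest were those of the licensing factors Cdc6 (-0.102 ± 0.0505, adjusted p = 0.163) and Cdt1 (-0.0445 ± 0.0501, adjusted p = 0.545) and of Kif2c (0.000308 ± 0.0883, adjusted p = 0.998). With MSC replicate 1 and MSCEPO replicate 3 both left out, 11 members had a positive slope, where 5.1% of all genes did, and with the replicate number as a block 14 did, where 3.73% of all genes did. In each case 0 had a negative slope. The slope of Cdc6 passed the threshold after quantile normalization (-0.191, adjusted p = 0.0221), and its adjusted p was up to 0.517 over the alternatives.

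**Figure D5:**
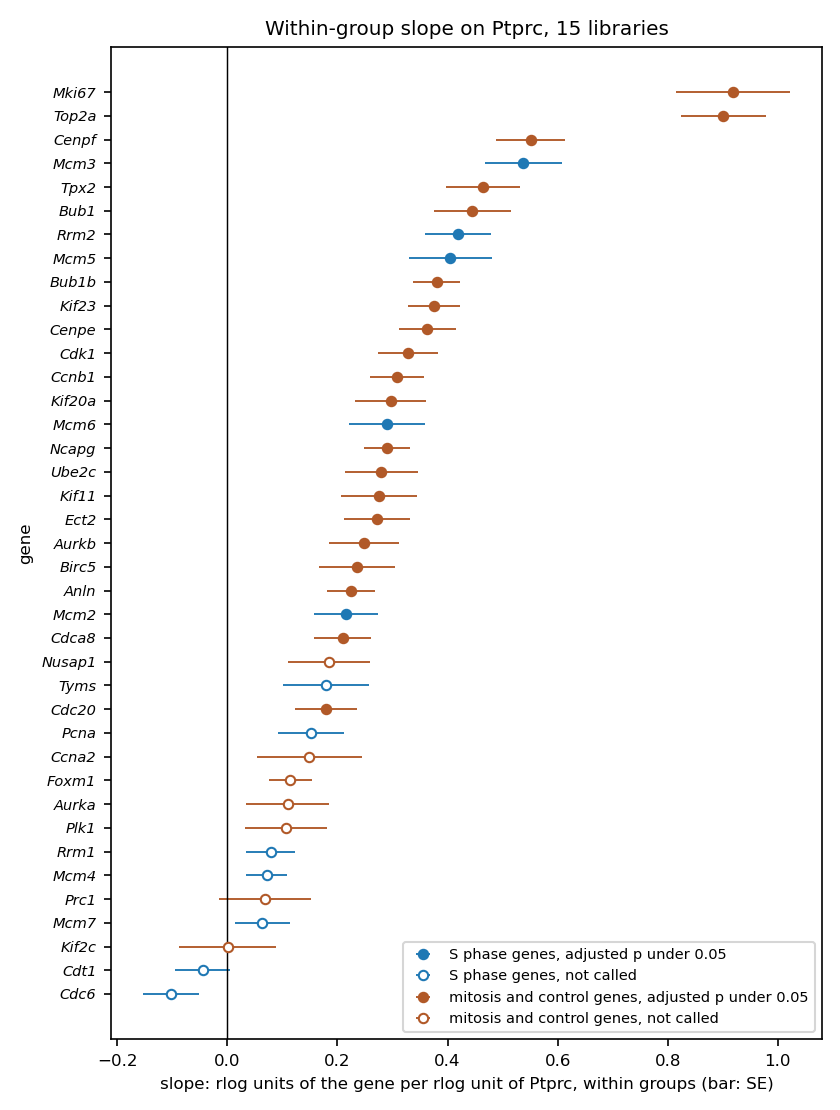
Within-group slope of each of the 39 tested members on Ptprc (x axis, rlog units per rlog unit of Ptprc, bar: SE), with filled points at an adjusted p under 0.05 and colour for S phase genes or genes of mitosis and its control. Mki67 and Top2a had slopes of 0.918 and 0.901, 25 of the 39 points are filled, and Cdc6 and Cdt1 lie below 0.

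By role, the slope was called positive for 8 of 8 genes of the kinetochore, checkpoint and anaphase-promoting complex, 3 of 3 of chromosome structure, 6 of 9 of spindle and cytokinesis, 3 of 6 cyclins and kinases, 4 of 9 of origin licensing and replication, 1 of 3 of nucleotide supply and 0 of 1 transcription factor. For these counts and those below, 12.7% of all genes tested had a called positive slope and 8.38% a called negative one. Some roles hold very few genes. Within the MCM helicase, Mcm2, Mcm3, Mcm5 and Mcm6 were called and Mcm4 and Mcm7 were not, with slopes of 0.0713 ± 0.0368 and 0.0636 ± 0.04998 (SE). Within nucleotide supply, Rrm2 was called (0.419 ± 0.0602) and Rrm1, the large subunit of the same enzyme, was not (0.0787 ± 0.0451). Of the cyclins and kinases, Cdk1, Ccnb1 and Aurkb were called, and Ccna2, Aurka and Plk1 had slopes from 0.106 to 0.149 that did not pass. The difference between roles was not tested. Among the other genes of the pathway, 28 of 47 mitosis genes had a positive and 0 a negative slope, with Aspm, a spindle pole protein, at 0.384 ± 0.0421 (adjusted p = 9.96e-05), and 8 of 39 replication genes had a positive and 1 a negative slope, which was Gins2, of the replication fork (-0.190 ± 0.0586, adjusted p = 0.0382).

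Correlation with Ptprc was also measured over the 9 cell-injected libraries alone with exact permutation tests (two-sided, 362880 orders, adjusted over all genes tested). No group terms were used here, so differences between the 3 groups also enter these values. Pearson's r with Ptprc was positive at an adjusted p under 0.05 for 26 of the 39 members and negative for 0, where 8.49% and 4.1% of all genes were. The median r was 0.873 over the members and 0.0766 over all genes. For Mki67 r was 0.972 (exact permutation p = 1.38e-05, adjusted p = 0.00221) and Spearman's rho was 0.983 (p = 4.96e-05, adjusted p = 0.00665). For Top2a r was 0.971 (exact permutation p = 2.48e-05, adjusted p = 0.00244) and rho was 0.983 (p = 4.96e-05, adjusted p = 0.00665). Without MSC replicate 1 and DPSC replicate 3, the libraries farthest from the median of Ptprc, r was 0.931 for Mki67 and 0.920 for Top2a over 7 libraries, and the median over the members was 0.811. Without MSC replicate 1 alone, 5 members passed the adjusted p, where 2.4% of all genes did. Ccna2, Plk1 and Aurka had r of 0.645, 0.621 and 0.517 over the 9 libraries and -0.216, -0.102 and -0.302 over the 7, so their positive r rested on those libraries. Cdc6 and Prc1 had r of -0.488 and -0.100 over the 9 (exact permutation adjusted p = 0.355 and 0.877), and of -0.747 and -0.590 over the 7. The mean of the T and NK cell markers was 7.003 in MSC replicate 1 and 4.05 to 5.41 in the other cell-injected libraries, and that of the B and plasma cell markers was 9.04 in MSC replicate 1 and 4.24 to 7.01 in the others (4 of 5 markers in the table). The mean of the 11 macrophage and microglia markers was 10.35 in MSC replicate 1 and 7.95 to 9.42 in the others. The part of any 1 cell type in the members' levels was not tested.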

How the data were processed

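Total RNA of 15 rat retinas, 3 libraries in each of 5 groups, was enriched for mRNA and sequenced. The authors quantified the reads with Salmon (1.1.0) against the Ensembl Rnor_6.0 transcriptome. Gene-level abundances were made with tximport, then normalized and transformed with DESeq2 (version 3.2 per the labels). The deposited values are the authors' rlog values on a log2 scale, corrected for library size and shrunken toward the gene mean, so differences of low genes are understated. No counts were used, so depth is unknown, no interval or floor is given, and a count test was not possible. A further 15 columns of a whole-series table were a copy (0 values differ) and were not used. How reads from human cells were treated is not given in the sources used here.

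Groups were taken from the titles. limma (3.58.1, R 4.3.3) was fitted to the values of all 15 libraries with 5 group means and variances moderated with a trend, over 15424 genes with a mean of at least the log2 of 10, and p-values were adjusted by Benjamini-Hochberg over all of them in each of 10 comparisons. After the authors' thresholds, DEGs were genes past 1 log2 unit in either direction with an adjusted p below 0.05. The slope on Ptprc was fitted with group means as further terms. Correlations used exact permutation in numpy (2.4.6). These steps were tested on simulated data. Members and lists were chosen with earlier results of these data known. The genes given per library are Mki67, Top2a, Cdk1, Ccnb1, Ccna2, Foxm1, Mcm2, Mcm5, Pcna, Rrm2, Cdc20, Birc5 and Kif11, with Mcm3, Cenpf, Prc1, Kif2c and Tyms. In each comparison members with an adjusted p under 0.05 are named, with the 6 largest and 3 smallest slopes and up to 4 other pathway genes. Other genes named were chosen after their values were seen, and 1 gene under this rule is not reported here. Promoters are from RefSeq (GRCr8). The alternatives were the adjusted p alone, other filters, the compared groups alone, a replicate block, median centring, quantile normalization, array weights and each library left out.

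Replicate numbers are shared between groups. Deviations of same-numbered libraries correlated at over 0.1 in every pair only between MSC and MSCEPO (0.26, 0.16 and 0.28). The labels give no pairing, and the values reported for that comparison come from a fit without one. The replicate number was used as a block only among the alternatives. Ptprc also fell from replicate 1 to replicate 3 in both groups, and its part in these correlations was not tested. The labels do not say that the libraries of a group came from separate animals, so p-values measure the spread between these libraries.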

Additional observations from a re-analysis of the deposited data

How the results depend on the processing

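Of 186 alternative counts of members called, 165 stayed within 1.5 times the main count, and 21 did not. Where the main count was 0, an alternative count of 0 was also taken as within. Most of those comparisons called few or no genes at all, so the 165 is no measure of stability. No result changed direction past its threshold. Percentages in brackets are the shares of all genes called in the same fits, in either direction. At an adjusted p under 0.05 alone the counts were 16 in MSC against NT (17.4%), 4 in MSCEPO against NT (11.6%) and 2 in DPSC against NT (2.85%). With array weights, whose estimation stopped before convergence, they were 3 in MSCEPO against Sham (2.64%), 7 in MSCEPO against NT (6.83%) and 2 in DPSC against NT (2.3%). Median centring gave 1 in DPSC against NT (0.843%). With MSC replicate 1 and MSCEPO replicate 3 left out together, 7 members were called in MSCEPO against NT (6.49%) and 11 had a slope on Ptprc (6.7%). With single libraries left out, the counts ranged from 0 to 14 in MSC against Sham (0% to 3.4%) and 4 to 20 in MSC against NT (4.34% to 8.1%). They ranged from 2 to 5 in MSCEPO against NT (1.99% to 5.41%) and 0 to 1 in DPSC against NT (0.311% to 1.13%). For the slope they were 20 to 26 (13.5% to 29.3%), and for the correlation 5 to 24 (2.4% to 12.1%). The correlation gave 16 with Spearman's rho (10.2%) and 17 after quantile normalization (16.3%). The causes of these shifts were not tested, beyond the fewer libraries in a fit that leaves some out.

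With the replicate block, 10 members were called in MSC against NT (6.99% of all genes) and 3 in MSCEPO against NT (3.92%). In each other comparison 0 were called, and 14 had a slope on Ptprc (4.41% of all genes, either direction). Between MSC and MSCEPO the block changed no call. The same held in a fit of those groups alone that was chosen after seeing the data (0 called). In the labels, the libraries of all groups share only a number. Over the alternatives, the highest adjusted p by limma in MSC against NT was 0.0422 for Top2a, 0.0528 for Mki67, 0.0167 for Kif11, 0.0347 for Kif2c and 0.0182 for Prc1. Mcm3 had a range from 0.00922 to 0.123. Cenpe and Kif23 had an adjusted p above 0.05 in 10 of 14 alternatives, Ncapg in 8 and Bub1b in 7. It was so in 6 for Birc5 and Mcm3, 5 for Aurkb, Cenpf, Mcm5 and Rrm2, 3 for Ube2c and 2 for Mki67. In MSCEPO against NT it was so for Kif11 and Tyms in 6 of 14 (highest 0.119 and 0.170). In DPSC against NT it was so for Kif2c in 10 of 13 and Prc1 in 4 (highest 0.192 and 0.120). Depth is unknown and rlog values are shrunken, so differences of members with low values may be larger than given.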
